A study of Mus musculus with 1012 samples.

Results

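IBA cells are an immortalised mouse brown preadipocyte line, and those described here were sequenced as whole cells that had not been probed. They were chosen by their labels alone, as the whole-cell libraries named IBA in the 3 batches called scRNA, 8_8 and 9_1, which hold 93, 15 and 45 of them. They make up 15.1% of the 1012 libraries of the series, and the IBA cells of the separate post-sampling experiment were left out. The study developed Live-seq, which sequences cytoplasm drawn from a living cell, and used such whole-cell libraries as the reference. The line was made from stromal vascular cells of the interscapular brown fat of young male C57BL6/J mice, and the labels give its cells as not treated. ASPC_Pre are 60 primary adipose stem and progenitor cells from subcutaneous fat of female C57BL/6J mice, also not treated, and ASPC_Post are 35 such cells given the adipogenic cocktail that the labels call DMIR. RAW_Mock (95, 16 and 46 cells by batch) and RAW_LPS (88, 15 and 46) are cells of the macrophage-like subline Raw264.7_G9, either not treated or treated with lipopolysaccharide. According to the methods this subline carries an mCherry reporter of the Tnf promoter and a fusion of relA with GFP. The labels give the cells of all these states the same high-glucose medium with serum, and according to the methods the lines were not authenticated. IBA cells stood in all 3 batches, ASPC_Pre in 8_8 and 9_1, and ASPC_Post in 9_1. The methods call the batches experimental replicates without saying whether they were separate cultures, so each p-value below measures the spread between batch sums, which may be technical.

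Brown preadipocytes are dividing progenitors that secrete a collagen-rich matrix and, once induced, turn into thermogenic brown adipocytes. The transcription factors Zic1, Lhx8 and Ebf2 mark the brown lineage, and Pparg is the central factor of fat cell formation. In dividing cells the genes of G2 and mitosis are switched on together, and their promoters often carry a CHR element with CCAAT boxes, whereas S phase genes often carry E2F sites.

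Levels are in CPM, the counts of a gene scaled to a common total of the counts kept, without 92 ribosomal protein genes and the 20 genes found most in the negative controls of the study, either per cell or in the sum of a batch. Total counts per IBA cell had medians of 401424 in scRNA, 399889 in 8_8 and 974917 in 9_1, and the medians of genes detected were 9175, 8419 and 9783. Mitochondrial genes took 6.71, 3.33 and 9.18 percent of the counts (medians in that order). No molecular identifiers were used, so reads copied from the same molecule are counted separately. The counting intervals below treat reads as independent and can be too narrow, and they leave out the spread between cells and batches. The exact intervals on shares of cells treat cells as independent and leave out the spread between batches.

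The label held for all but 1 IBA cell by the rule used, more counts from 10 mesenchymal than from 10 macrophage genes. The remaining cell, in batch 9_1, had 0 counts of the mesenchymal genes, 31782 CPM of macrophage genes, 24512 CPM of Lyz2 (lysozyme) and none of the supplied IBA markers. The next highest macrophage sum in an IBA cell was 359.7 CPM. Results that rest on the cell against its label are given with and without it, except the r between means of lists and between single genes. In the other IBA cells the median macrophage sum was 3.36 CPM in scRNA, 9.57 in 8_8 and 6.79 in 9_1, against 7817 to 10542 in RAW_Mock. The median sums of endothelial, epithelial and Schwann cell genes were 0 CPM in each batch. At least 1 of 4 Y-linked genes (Ddx3y, Eif2s3y, Uty, Kdm5d) was counted in 81 of 93, 14 of 15 and 34 of 45 IBA cells, and Xist, the RNA of the inactive X, in 1 cell. IBA cells without any Y-linked count were not shallower, with median kept counts of 345306 against 313526 in scRNA and 716910 against 651658 in 9_1. Y-linked genes were also counted in 8 of 16 and 35 of 44 ASPC_Pre cells, and Xist in 4 of 16 and 4 of 44, where the methods give a female source. In RAW_Mock, Y-linked genes were counted in 5 of 95, 3 of 16 and 2 of 46 cells and Xist in 0. The source of the Y-linked counts in ASPC_Pre was not tested.

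The 4 markers supplied for IBA cells were counted together in 29 of 93, 3 of 15 and 21 of 45 IBA cells and in 0 of 60 ASPC_Pre cells. Ptn encodes pleiotrophin, a secreted heparin-binding growth factor, and lay at 1585, 229.5 and 1494 CPM in the sums of scRNA, 8_8 and 9_1. Among single cells its lowest, median and highest values were 0, 669.7 and 9565 CPM in scRNA, 0, 59.6 and 1002.8 CPM in 8_8 and 0, 1146 and 6149.6 CPM in 9_1. Sfrp2, a secreted WNT modulator, lay at 1312, 148.6 and 1311 CPM in the same order. For both genes batch 8_8 was the lowest of the 3. Tgfbi, a matrix protein induced by TGF-beta, lay at 103.2, 59.6 and 430.3 CPM, and Tspan11, a tetraspanin of the cell membrane, at 23.5, 24.8 and 37.6 CPM. Per kilobase of exon, the mean IBA level was highest for Sfrp2 (429.1 CPM per kb), then Ptn (321.2), Tgfbi (52.4) and Tspan11 (5.38). Over the batches the ranges per kilobase of Sfrp2 and Ptn overlapped, and so did those of Ptn and Tgfbi. Within each batch Sfrp2 lay above Ptn per kilobase. The order was not tested. In ASPC_Pre, Ptn lay at 0 and 26.3 CPM (8_8 and 9_1), Sfrp2 at 9.24 and 0.288 CPM and Tgfbi at 1.70 and 1.85 CPM, so that every IBA sum was above every ASPC_Pre sum for each of these genes. In the test described next, Ptn (log2 fold change 6.17 ± 0.88 SE, adjusted p = 0.00522), Sfrp2 (log2 fold change 7.69 ± 1.83 SE, adjusted p = 0.0314) and Tgfbi (log2 fold change 6.59 ± 1.11 SE, adjusted p = 0.00971) were called higher in IBA than in ASPC_Pre and Tspan11 was not (adjusted p = 0.0686). Without batch 9_1 only the Ptn call was left, and the Sfrp2 call was also lost without batch scRNA. The markers were chosen with earlier results of these data known, so these calls are not independent evidence for them.

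**Figure D1:**
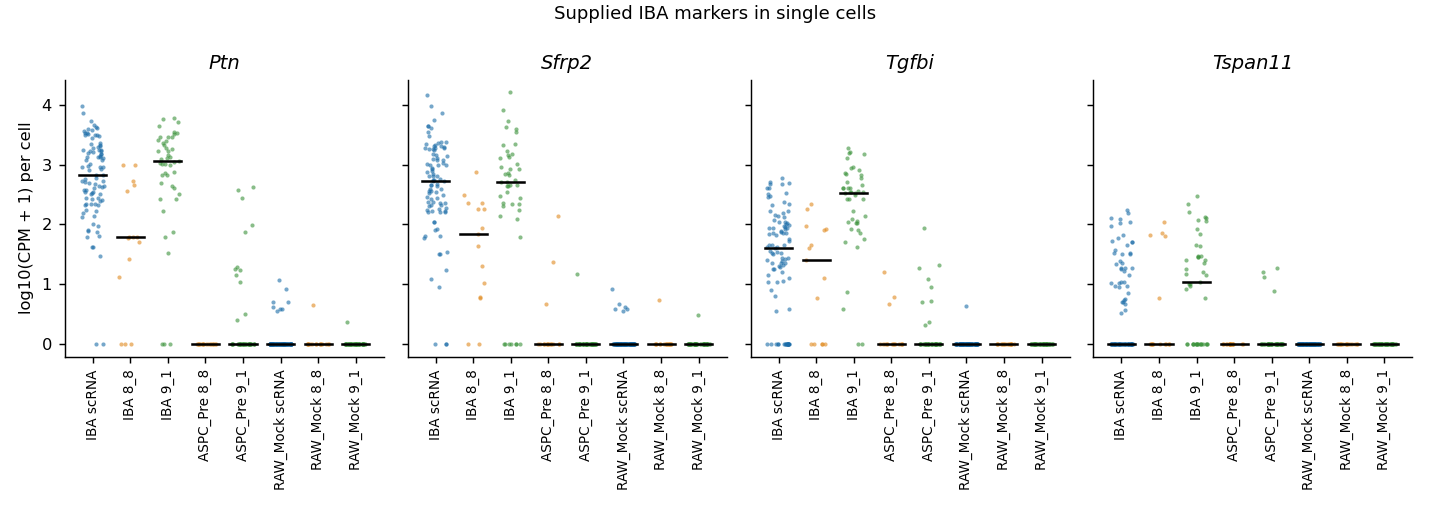
Level of the 4 supplied markers in each cell, as log10(CPM + 1), for IBA cells by batch and for ASPC_Pre and RAW_Mock cells. Points are cells and black bars are medians. The IBA medians of Ptn and Sfrp2 lie above 50 CPM in every batch, whereas the ASPC_Pre and RAW_Mock medians are 0.

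IBA cells were compared with ASPC_Pre to show how an immortalised brown preadipocyte line differs from primary progenitors of subcutaneous fat. Of 13562 genes tested on 12 batch sums with edgeR, 3.69% were called higher in IBA and 7.47% lower (1013 genes), where a call needs a log2 fold change beyond 1 in size and a Benjamini-Hochberg adjusted p under 0.05. Of these calls 33.1% were higher. Scaled by library size instead of TMM, 6.67% were higher and 5.42% lower, so that 55.2% of the calls were higher, since that scaling moved all log2 fold changes by a median of 0.30. Without the cell that went against its label the shares were 3.94% and 8.66%. Without batch 9_1 26 genes were called higher and 64 lower (0.21% and 0.516%), and without batch scRNA 0.725% and 2.05%, so the calls below rest on batch 9_1 in particular. Without the batch term in the model they were 2.24% and 4.76%. IBA and ASPC_Pre also differ in fat depot, sex given and immortalisation, which cannot be told apart here, and in sums fewer cells with a transcript cannot be told from less of it per cell.

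Many genes of DNA replication were higher in IBA. Of 43 S phase genes, all tested, 21 were higher in IBA and 0 lower, with a median log2 fold change of 2.01 beside -0.12 over all genes tested. Over all genes tested, 3.69% were higher and 7.47% lower. Mcm6 and Mcm4 encode subunits of the replicative helicase. Mcm6 lay at 707.02, 647.95 and 644.5 CPM in IBA and 217.6 and 44.9 CPM in ASPC_Pre (log2 fold change 2.20 ± 0.55 SE, adjusted p = 0.0365). Ung, which removes uracil from DNA, lay at 74.2, 106.3 and 61.6 CPM against 5.59 and 2.43 CPM (log2 fold change 4.16 ± 0.55 SE, adjusted p = 0.00424). Hells, a chromatin remodeller, was also higher (log2 fold change 3.08 ± 0.55 SE, adjusted p = 0.0123). Not every member followed, and Rrm2, a subunit of ribonucleotide reductase, was at 456.1, 660.9 and 351.2 CPM in IBA and 1103 and 353.9 CPM in ASPC_Pre without a call. Of 54 G2 and M phase genes 6 were higher and 0 lower (median log2 fold change 1.33). They were Cbx5, Ccnb2, Cenpa, Gas2l3, Hmgb2 and Smc4. For Cenpa, the centromeric histone, the sums were 272.2, 282.3 and 312.99 CPM against 118.2 and 23.2 CPM, so that the difference was larger in batch 9_1, as it was for Mcm6. These counts moved with the batches used. Without batch 9_1, 0 genes of either list were called, with medians of 1.31 for S phase and 0.43 for G2 and M phase. Without batch 8_8, 33 S phase genes were called higher (median 3.39) and 43 of the 54 G2 and M phase genes (median 3.16). Without batch scRNA the counts were 3 and 0, and with DESeq2 30 and 20. Without the cell against its label 24 S phase genes were called.

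Of the brown preadipocyte list, 7 of 10 genes were tested, 1 was higher and 1 lower, beside 3.69% higher and 7.47% lower over all genes tested. Zic1 lay at 26.7, 19.4 and 19.6 CPM in IBA and had 0 counts in ASPC_Pre, hence at least 217.5-fold higher against a floor of 3 counts over that group (adjusted p = 0.0343). DESeq2 did not call it. Among cells it was counted in 66 of 93, 11 of 15 and 35 of 45. The lower gene, Epsti1, had 1 count in IBA and 15 in ASPC_Pre, a ratio of 36.1 (counting interval 5.56 to 1521) in favour of ASPC_Pre. Its call was lost without the batch term, with the edgeR 4 fit and without each batch in turn, and its log2 fold change was 0.00197 without batch 9_1. Lhx8 was at 24.98, 7.30 and 21.7 CPM against 16.8 and 0.123 CPM, Ebf2 at 57.8, 17.7 and 32.1 CPM against 55.4 and 43.6 CPM and Tbx15 at 50.98, 53.8 and 51.2 CPM against 77.3 and 54.2 CPM, none of them called. Ucp1 was not analysed here. Of the other thermogenic genes 3 of 9 in the table were tested and 0 called, in IBA the list had a median of 0 CPM per cell in each batch, and Cidea had 0 counts.

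Of 14 adipogenic transcription factors tested, 0 were called higher and 1 lower, beside 3.69% and 7.47% of all genes tested, so that the count lay near that background and is no result about these factors. Pparg lay at 87.4, 95.1 and 33.9 CPM in IBA and 66.9 and 12.2 CPM in ASPC_Pre (log2 fold change 0.71 ± 0.51 SE, adjusted p = 0.411). Klf4, a reprogramming factor that also acts early in adipogenesis, was the lower one at 14.5, 1.04 and 10.97 CPM against 97.5 and 43.04 CPM. Mature fat cell genes gave 1 lower gene of 9 tested, Pnpla2, the first lipase of fat breakdown (23.4, 12.5 and 12.7 CPM against 36.96 and 35.02 CPM; log2 fold change -1.73 ± 0.30 SE, adjusted p = 0.0106). Adipoq had 2 counts in all IBA cells. Of the 16 cholesterol synthesis genes 3 were lower (Fdft1, Insig1 and Sc5d).

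Structural genes differed by class. The list counts against ASPC_Pre, here and in the paragraphs below, stand beside 3.69% higher and 7.47% lower over all genes tested. Of 16 collagens 1 was higher, a count near that share, and 3 lower, with a median of -0.52 (2 higher without the cell against its label). Col6a1, a chain of the beaded collagen of the pericellular matrix, lay at 1245, 254.3 and 630.1 CPM in IBA and 82.2 and 77.5 CPM in ASPC_Pre (log2 fold change 2.01 ± 0.48 SE, adjusted p = 0.0314). Col12a1 went the other way at 119.9, 41.1 and 87.98 CPM against 701.8 and 596.2 CPM (log2 fold change -3.66 ± 0.56 SE, adjusted p = 0.0115). Col1a1 and Col1a2, the chains of type I collagen, were not called, with log2 fold changes of -0.84 and -0.34. Of 13 contractile genes 0 were higher and 7 lower, with a median of -3.54. Acta2, smooth muscle actin, lay at 2332, 493.3 and 243.6 CPM against 6879 and 3909 CPM (log2 fold change -3.54 ± 0.79 SE, adjusted p = 0.0251). Under library-size scaling 5 contractile genes were lower, without batch 9_1 only 1 of 12, without batch 8_8 4 and with DESeq2 3. Of 9 YAP and SRF targets 0 were higher and 5 lower (Axl, Ccn2, Lats2, Tead1 and Vcl; 0 without batch 9_1 and 2 without batch scRNA). Of 16 matrix glycoproteins 1 was higher (Tgfbi) and 4 lower, among them Thbs1, thrombospondin-1, at 877.9, 571.9 and 185.1 CPM against 8149 and 6349 CPM (log2 fold change -4.57 ± 0.89 SE, adjusted p = 0.0172).

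Of 13 progenitor surface markers tested 0 were higher and 3 lower (Eng, Icam1 and Cd81), with a median log2 fold change of -1.67. Among those not called, Cd34 and Dlk1 had log2 fold changes of 1.18 and 0.66. Of 10 mesenchymal genes 0 were higher and 3 lower (Thy1, Dcn and Ly6a). Thy1 (CD90) had 2 counts in all IBA cells together and lay at 106.02 and 193.7 CPM in ASPC_Pre, which was 6199.9 times the IBA level (counting interval 1715 to 51208; adjusted p = 7.53e-04). Eng (endoglin) was at 2.11, 4.59 and 2.38 CPM against 220.6 and 130.8 CPM (log2 fold change -6.42 ± 0.87 SE, adjusted p = 0.00452). Ly6a (Sca-1) and Dcn (decorin) were lower but present, with Ly6a at 81.01, 26.3 and 262.4 CPM against 418.5 and 806.1 CPM. Of 10 WNT modulators tested, Sfrp2 and Wnt10b were higher and Sfrp1, Wnt5a and Dkk2 lower (0 higher and 1 lower without batch 9_1, 1 and 5 without batch 8_8, 0 and 3 without batch scRNA, and 1 and 1 with DESeq2). The 2 secreted frizzled-related proteins thus ran in opposite directions, since Sfrp1 lay at 3.60, 0 and 5.24 CPM in IBA and 230.5 and 506.05 CPM in ASPC_Pre (log2 fold change -7.74 ± 0.81 SE, adjusted p = 0.00387). Wnt10b, which restrains adipogenesis, lay at 4.59, 3.54 and 8.14 CPM and had 1 count in ASPC_Pre. Of 22 growth factors and chemokines 2 were higher (Ptn and the neutrophil chemokine Cxcl1) and 6 lower. The latter include Fgf2 at 2.92, 15.01 and 3.05 CPM against 285.2 and 457.3 CPM and Cxcl12, a chemokine of stromal cells, with 30 counts in all IBA cells against 96.1 and 266.2 CPM.

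The p53 target genes that passed the test were lower in IBA. Of 15 p53 targets 0 were higher and 5 lower, with a median of -1.32. Cdkn1a (p21), an inhibitor of cyclin-dependent kinases, lay at 270.2, 179.9 and 401.7 CPM in IBA and 456.7 and 1431 CPM in ASPC_Pre (log2 fold change -1.68 ± 0.38 SE, adjusted p = 0.0275), and Ccng1 at 820.4, 397.4 and 278.9 CPM against 1234 and 3715 CPM. Trp53 itself was at 389.01, 396.5 and 298.6 CPM against 194.8 and 169.6 CPM and was not called. Without batch 9_1, 0 p53 targets were called, and without batch scRNA 2. The calls of Cdkn1a and, in the lists above, of Klf4, Pnpla2 and Col6a1 were each lost when any 1 of the 3 batches was left out. The immediate early genes were split, with Junb and Ier2 higher and Dusp1, Klf6 and Nr4a1 lower of 13. Of 12 interferon-stimulated genes 3 were lower (Bst2, Ifit3 and Irf7). Of 8 NRF2 targets and metallothioneins, Hmox1, Nqo1 and Txnrd1 were lower and Slc7a11 higher.

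**Figure D2:**
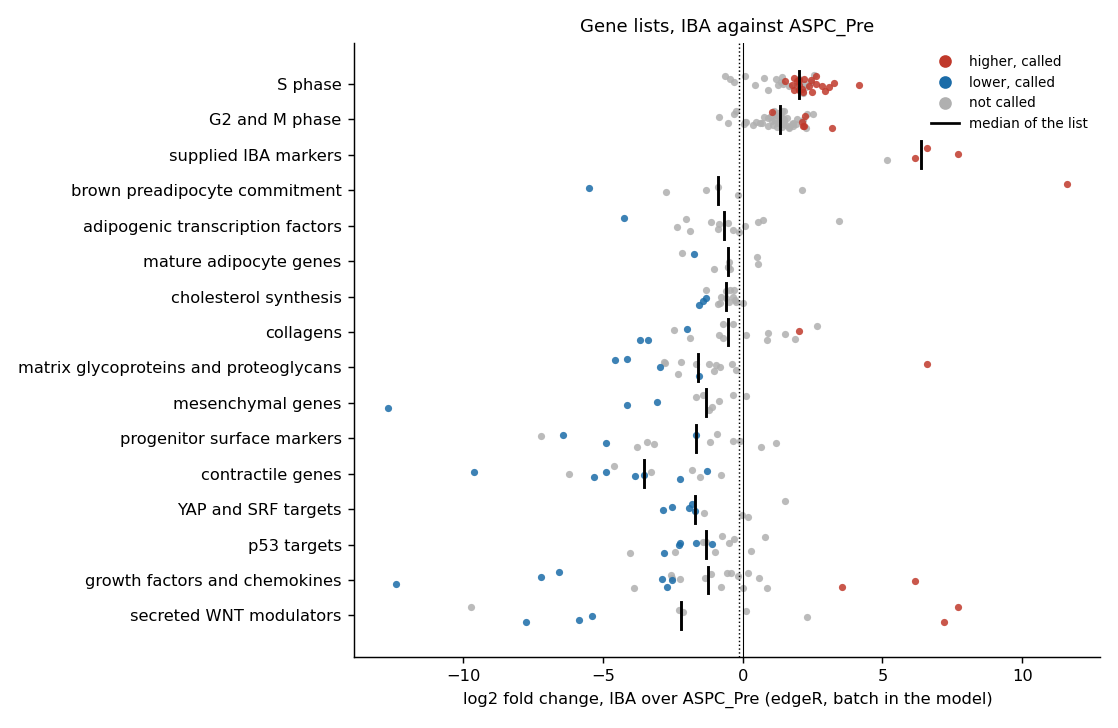
Log2 fold change of IBA over ASPC_Pre for each tested member of 16 gene lists, red where called higher, blue where called lower and grey where not called. Black bars are list medians and the dotted line is the median of all genes tested (-0.12); the S phase genes lie to the right, with a median of 2.01, and the contractile genes to the left, with -3.54.

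The genes with the largest called differences, taken among those that differed in the same direction in every shared batch and had at least 50 CPM in the mean of the higher state, included some of unsure identity. Zic1, below that level, was not ranked. Ifi202b, an interferon-inducible gene with close paralogs, lay at 134.4, 76.7 and 151.995 CPM in IBA with 0 counts in ASPC_Pre, at least 1312-fold higher. The pseudogene Gm13394 was at 245.2, 354.4 and 474.7 CPM in IBA, 0.973 and 0.740 CPM in ASPC_Pre and 879.6 ± 72.1 CPM (SD, n = 3) in RAW_Mock, and Gm6166 showed a like split. For such copies, reads of near-identical genes can be assigned differently. On the other side, Mmp3 (stromelysin), Ccl11 (eotaxin) and Pdgfd had 0 counts in all IBA cells, and Mmp3 was at least 6907-fold higher in ASPC_Pre. Cck had 2 IBA counts and lay at 519.7 and 3908 CPM in ASPC_Pre, and Mfap5, a microfibril protein, at 0.434, 0 and 0 CPM in IBA against 237.3 and 694.9 CPM.

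Against the average of the other 4 whole-cell states, 15.9% of the genes tested were higher in IBA (2150) and 6.59% lower. Without the cell against its label the shares were 16.1% and 7.14%, and without batch scRNA 3.19% were lower. The other states are ASPC_Pre, ASPC_Post, RAW_Mock and RAW_LPS, hence 2 of macrophages. Among the lists, 15 of 16 collagens, 16 of 16 matrix glycoproteins tested and 9 of 10 mesenchymal genes were higher. Thy1 was the lower mesenchymal gene. By the same rule of direction and level, the largest called rises were Sfrp2, Ptn, Ifi202b, Tgfbi and Rgs4, of which Sfrp2, Ptn and Tgfbi are supplied markers. Rgs4, a regulator of G protein signals, lay at 108.2, 48.6 and 52.8 CPM in IBA, 14.3 and 9.29 CPM in ASPC_Pre and 0 CPM in RAW_Mock (log2 fold change 8.95 ± 0.54 SE, adjusted p = 4.8e-04). The largest falls were EGFP, Cxcl14, Irf8, Htr1b and mCherry, of which the reporter mCherry and the macrophage factor Irf8 had 0 counts in IBA. EGFP and mCherry are introduced sequences rather than mouse genes. EGFP had 1 count in IBA and 12095 in ASPC_Pre, and its source in ASPC_Pre was not tested. Ebf2 had 0 CPM in RAW_Mock and was higher in IBA in this contrast (log2 fold change 5.90 ± 0.51 SE, adjusted p = 0.00151), as was Pparg (log2 fold change 7.19 ± 0.48 SE, adjusted p = 6.56e-04). Against ASPC_Pre alone neither was called, with log2 fold changes of -1.31 for Ebf2 and 0.71 for Pparg.

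Within each batch, transcripts of mitosis varied together from cell to cell. The promoters of the 4 G2 and M phase genes whose levels followed the rest of that list best are shown, because these genes carried the main axis of variation described next. Cenpe is a kinesin of the kinetochore, Ube2c the ubiquitin-conjugating enzyme of the anaphase-promoting complex, Kif23 a kinesin of the midbody and Cenpf a kinetochore protein. The 250 bases before the RefSeq start (GRCm38.p6) are given 5′ to 3′ at chr3:135212313-135212562 (plus strand) for Cenpe, chr2:164769679-164769928 (plus strand) for Ube2c, chr9:61946800-61947049 (minus strand) for Kif23 and chr1:189688087-189688336 (minus strand) for Cenpf. Capitals mark CCAAT or its complement ATTGG and the CHR motif TTTGAA or its complement TTCAAA.
Cenpe: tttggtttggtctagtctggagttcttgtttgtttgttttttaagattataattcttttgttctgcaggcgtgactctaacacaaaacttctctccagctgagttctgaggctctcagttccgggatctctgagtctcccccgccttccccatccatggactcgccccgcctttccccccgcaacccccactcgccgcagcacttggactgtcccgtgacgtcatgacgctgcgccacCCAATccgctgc
Ube2c: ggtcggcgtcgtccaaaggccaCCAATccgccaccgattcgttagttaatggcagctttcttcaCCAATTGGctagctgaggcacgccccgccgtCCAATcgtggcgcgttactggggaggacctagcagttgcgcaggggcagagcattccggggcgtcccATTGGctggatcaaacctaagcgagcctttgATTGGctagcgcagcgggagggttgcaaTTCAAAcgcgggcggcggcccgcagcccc
Kif23: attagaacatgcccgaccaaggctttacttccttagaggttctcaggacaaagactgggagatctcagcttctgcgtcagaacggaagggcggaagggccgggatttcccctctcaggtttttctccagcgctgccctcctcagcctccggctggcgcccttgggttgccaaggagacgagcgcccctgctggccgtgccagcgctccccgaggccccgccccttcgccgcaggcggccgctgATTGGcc
Cenpf: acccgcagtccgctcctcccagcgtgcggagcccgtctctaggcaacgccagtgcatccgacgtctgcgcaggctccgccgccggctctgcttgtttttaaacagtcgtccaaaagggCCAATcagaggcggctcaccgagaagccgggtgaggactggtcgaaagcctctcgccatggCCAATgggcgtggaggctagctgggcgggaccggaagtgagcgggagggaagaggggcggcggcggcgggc
Each of the 4 holds at least 1 CCAAT box, at 12 bases before the start in Cenpe, at 6 places in Ube2c, 1 of them overlapping another, at 7 bases in Kif23 and at 132 and 71 bases in Cenpf. A CHR motif lies 29 bases before the start of Ube2c and, past the printed stretch, at position 3 after the start of Kif23 and of Cenpf, and Cenpe has none in this window. Over windows from 250 bases before to 50 after the start, on both strands, CHR was found in 32 of the 47 G2 and M phase genes with a promoter (68.1%), against 18.1% of 27025 promoters and 11.8% of the 9840 of genes tested, and CCAAT in 76.6% against 37.9% and 39.2%. For S phase genes the shares were 12.9% and 67.7% of 31, and the E2F core TTTCGC was found in 22.6% against 4.1% of all promoters. These matches describe letters only.

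The level of these genes ran from 0 to high values in each batch. Cenpf was counted in 61 of 93, 10 of 15 and 27 of 45 cells, with lowest, median and highest values of 0, 27.9 and 923.9 CPM in scRNA, 0, 46.2 and 631.7 CPM in 8_8 and 0, 9.22 and 950.7 CPM in 9_1. It was the 1 gene with 0 counts in at least 30% of cells and at least 100 CPM in another 30% or more in every batch. With 20% in place of 30% there were 22 such genes, 13 of them in the G2 and M phase list, and with 200 CPM there were 0. Outside that list the 22 included Ccnb1, Bub1b, Incenp, Spc25, Kif4, Kif22 and Pbk, which also act in mitosis, and the chemokines Cxcl1 and Ccl9. Cdc20, the mitotic activator of the anaphase-promoting complex, reached 1594, 1093 and 1876 CPM in its highest cell, around medians of 122.7, 93.2 and 39.9 CPM.

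By the sign of their S and G2M scores, 92.5% of IBA cells were placed in S or G2M in scRNA (exact interval 85.1 to 96.9%), 100% in 8_8 (78.2 to 100%) and 88.9% in 9_1 (75.9 to 96.3%), a mean of 93.8% ± 5.67 (SD, n = 3). G2M alone held 45.2%, 26.7% and 31.1%. RAW_Mock gave 90.1% ± 3.43 over the same batches, and the difference of 3.73 points did not pass an exact two-sided permutation test (p = 0.5, where 3 batches against 3 cannot go below 0.1). Within batches RAW_Mock had 89.5%, 93.8% and 86.96%, so that IBA was higher in 3 of 3. Paired by batch, an exact two-sided sign-flip test chosen after seeing the data gave p = 0.25, the smallest that 3 pairs allow. ASPC_Pre gave 50% of 16 cells in 8_8 and 0% of 44 in 9_1 (exact upper bound 8.04%). Of the IBA cells 8, 0 and 5 lay within 0.05 of the cut between G1 and the rest. The scores place cells on a range rather than in types. They were computed over the whole cells of all states together, ASPC and RAW_LPS cells among them. The cut at 0 is thus relative to that pool, and the shares are no absolute measure of the cells in S or G2M. With another rule, a mean z score above 0 within the batch, the share was 70.3%. That rule puts its cut at the mean of the IBA cells of each batch, so it cannot gauge how many were in S or G2M. Thinning each cell to 75000 kept counts left the mean at 93.8%. The S phase values beside ASPC_Pre in batch 9_1 thus set IBA cells of which most scored for S or G2M against progenitors of which none did.

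**Figure D3:**
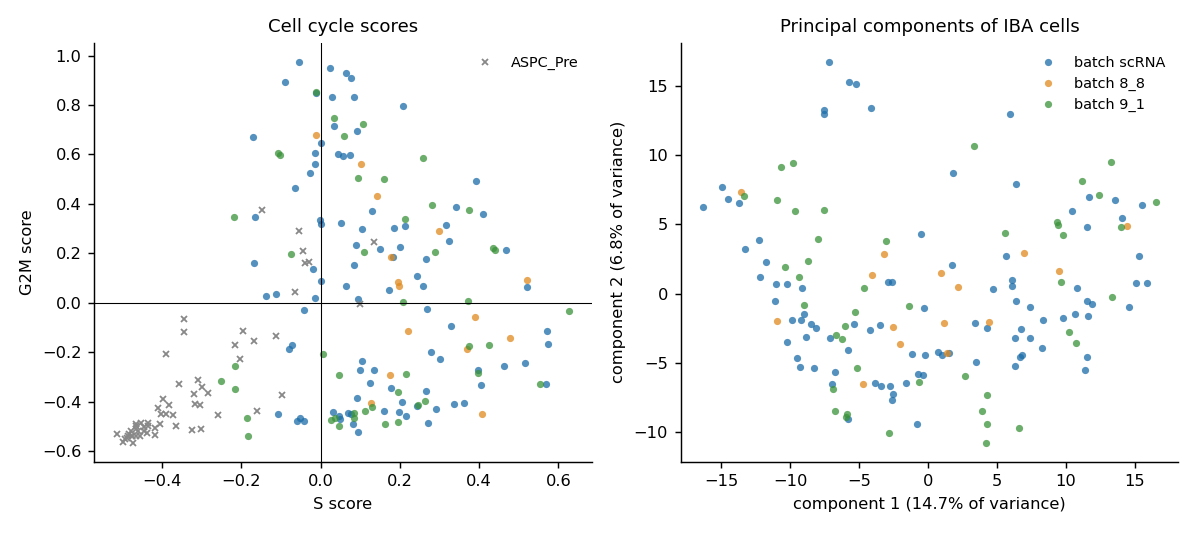
Left, S score against G2M score of each IBA cell, coloured by batch as in the right panel, with ASPC_Pre cells as crosses; lines mark 0. Right, the first 2 principal components of the IBA cells after centring within batch, which hold 14.7% and 6.8% of the variance of 500 genes. Most ASPC_Pre crosses lie in the lower left, and IBA cells of every batch spread along component 1.

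The first principal component of the IBA cells, centred within batch, held 14.7% of the variance of 500 variable genes. It correlated with the mean of the G2 and M phase genes at r = 0.96, 0.98 and 0.96 across the 93, 15 and 45 cells, a description in which both sides share genes and libraries. Ccna2, Ube2c, Cdca8, Birc5 and Ccnb1 led its high end, and all 42 G2 and M phase genes among the 500 loaded there. Its low end held Mcm6 and Ung of S phase beside Col3a1, Vcan and Thbs2 of the matrix, and all 9 matrix glycoproteins and all 7 p53 targets among the 500 loaded on that side. Of the 10 S phase genes among the 500, 7 loaded on the low side and 3 on the high, and the component had r = -0.09, -0.35 and 0.15 with the S phase mean. The second component held 6.8% and ran from Col6a1, Fads1, Col6a3, Col6a2 and Acly at its high end, collagen VI and lipid synthesis genes, to Timp1, Tnfrsf12a, Ccnd1 and Hmga2 at its low end. It recurred among the components of scRNA cells alone (r of loadings 0.88) and of 9_1 cells alone (0.62) but not of the 15 cells of 8_8 (0.09). In 8_8 its score followed depth (r = 0.73 with log10 kept counts), and in scRNA it followed depth at 0.44 and genes detected at -0.53; the part of depth in it was not tested. The third held 3.8%, with Lrrc32, Ccn2 and Col4a1 against Hspb1, Rnase4 and Slit2, and likewise recurred in scRNA (0.92) far more than in 9_1 (0.27) or 8_8 (0.05).

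Other genes than those of mitosis varied in every batch. Of 9223 genes counted in at least 30% of the cells of each batch, 30 were among the 200 with the highest standardized variance in all 3, which is 15% of each list. Of the 30, 11 belong to the G2 and M phase list and 0 to the S phase list. The others include Plk1, Ccnb1 and Fam83d, which also act in mitosis, and Thbs1, Cdkn1a, Spp1, Sfrp2, Il1rl1, Ccl2, Ccn2, Acta2, Postn and Col4a1. Thbs1 had lowest, median and highest values of 0, 465.9 and 8275 CPM in scRNA, 50.1, 408.4 and 1584 CPM in 8_8 and 0, 45.8 and 2373 CPM in 9_1. Spp1 (osteopontin), a secreted phosphoprotein, was counted in 67 of 93, 12 of 15 and 38 of 45 cells and reached 5060.3, 1201 and 7878 CPM around medians of 66.1, 123.1 and 211.6 CPM. Cdkn1a ranged from 0 to 2252, from 0 to 679.1 and from 0 to 2445 CPM, with medians of 53.9, 64.7 and 72.8, so that in every batch the highest cell was far above the median. Ccl2, the monocyte chemokine, was counted in 93 of 93, 14 of 15 and 43 of 45 cells, and its highest cell in 9_1 had 14714 CPM. The marker Sfrp2 was thus both called higher in IBA and among the genes that varied most within IBA cells, whereas Ptn was not among the 30. Thinned to 75000 counts per cell 56 genes were shared by the 3 lists, 25 of them among the 30, and with the squared coefficient of variation 14.

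**Figure D4:**
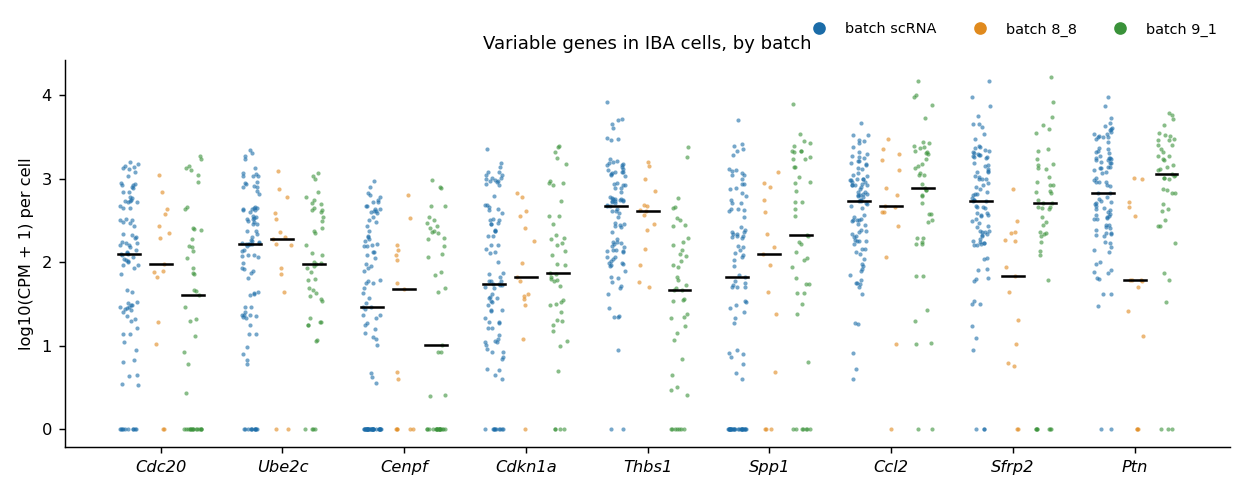
Level of 8 of the 30 variable genes and of the marker Ptn in each IBA cell, as log10(CPM + 1), by batch. Points are cells and black bars medians; each gene has cells at 0 and cells above 500 CPM, and the medians of Ptn and Sfrp2 are lowest in 8_8.

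Genes of some lists varied together from cell to cell. The median Pearson r over pairs of G2 and M phase genes was 0.61, 0.44 and 0.62 in scRNA, 8_8 and 9_1, beside 0.00473, -0.00414 and 0.00865 over all pairs of the 9223 genes, and over S phase genes it was 0.21, 0.12 and 0.28. Genes of the same cells share libraries and depth, so these values carry no p. Collagens gave 0.35, 0.25 and 0.34, and the 2 collagen VI chains Col6a1 and Col6a2 gave r = 0.92, 0.67 and 0.93. Genes of cholesterol synthesis gave 0.31, 0.20 and 0.49, p53 targets 0.51, 0.13 and 0.27 and contractile genes 0.37, 0.25 and 0.24. Without the cell against its label the last value fell to 0.15. Adipogenic transcription factors (0.00, 0.00 and -0.02) and mature fat cell genes (-0.01, -0.05 and 0.08) stayed near the value of all genes. The chemokines Ccl2 and Ccl7, neighbours on chromosome 11, gave r = 0.75, 0.89 and 0.78. Mitochondrially encoded genes gave 0.66, 0.83 and 0.26.

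The mean of the 4 markers had positive r with the matrix lists and negative r with mitosis in each batch. The mean of the collagens correlated with that of the markers at r = 0.76, 0.57 and 0.62 and with that of the matrix glycoproteins at 0.77, 0.50 and 0.80. The G2 and M phase mean had r = -0.29, -0.17 and -0.42 with the markers and -0.32, -0.49 and -0.29 with the adipogenic factors, negative in each batch. Single markers did not all follow, since Tspan11 had r = 0.01, 0.16 and -0.11 with Col6a1, and Tgfbi -0.10, 0.33 and -0.33 with the mitotic kinase Plk1. With the collagen mean, the G2 and M phase mean had r = -0.30, 0.12 and -0.38, so the sign in the 15 cells of 8_8 differed. The G2 and M phase mean itself had r = 0.04, 0.34 and 0.26 with log10 kept counts and 0.26, 0.44 and 0.31 with genes detected. For the collagen mean these were 0.19, 0.48 and -0.11, and -0.49, 0.47 and -0.14. The marker mean gave 0.29, 0.45 and -0.21, and -0.45, 0.10 and -0.18. With the matrix glycoprotein mean they were 0.21, 0.73 and -0.08, and -0.26, 0.45 and -0.01. The part of depth in the r between lists was not tested.

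**Figure D5:**
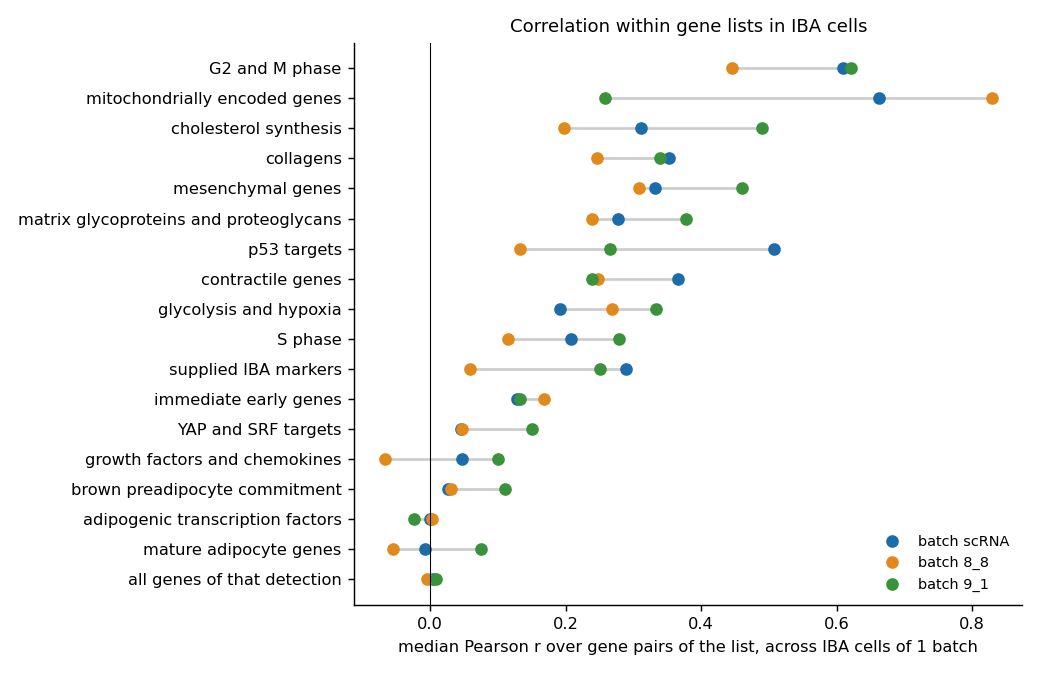
Median Pearson r over gene pairs of each list across the IBA cells of 1 batch, for 17 lists and for all genes of that detection. G2 and M phase genes lie between 0.44 and 0.62, whereas all pairs lie near 0.

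The batches of IBA cells differed from one another more than those of RAW_Mock did in number of genes. Of 5546 genes with at least 50 CPM in 1 or more IBA sums, 6.80% differed 4-fold or more between the highest and lowest batch, beside 3.88% of 5419 in RAW_Mock, with 1 sum per batch and no test. Pearson r between log2 sums over 13562 genes was 0.918 to 0.940 in IBA and 0.941 to 0.961 in RAW_Mock. Fxyd2 and Lyz2 had the largest ratios, and both rested on the cell against its label (Lyz2 714.03-fold with it and 3.97-fold without). Il1rn, the interleukin-1 receptor antagonist, lay at 134.5, 0 and 21.96 CPM, and was counted in 23 of 93, 0 of 15 and 10 of 45 cells. Ogn (osteoglycin), a matrix proteoglycan, lay at 242.5, 1.88 and 111.5 CPM and was counted in 86, 2 and 36 cells, so the batches also differed in the share of cells with it. Tnnt2, cardiac troponin T, went the other way at 0.434, 81.5 and 3.31 CPM, counted in 13 of 15 cells of 8_8 and in 5 of 93 and 7 of 45 of the others. Dlk1, a preadipocyte factor that inhibits adipogenesis, lay at 143.2, 7.30 and 2.73 CPM and was counted in 48 of 93, 3 of 15 and 9 of 45 cells. In RAW_Mock, Il1rn, Ogn, Tnnt2 and Dlk1 were at or below 1.81 CPM in every batch, so these differences could not be compared there. By the labels the spike-in of batch scRNA was more diluted than that of 8_8 and 9_1, and depth was highest in 9_1. The part of either in the batch differences was not tested.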

How the data were processed

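The authors deposited raw read counts per gene for 30452 features, with 1 column per cell. Cells were sorted as live single cells stained with DAPI into plates and sequenced by Smart-seq2 without molecular identifiers, and no doublet caller was run here. The submitters' processing notes name bcl2fastq 2.19.1, STAR 2.6.1c, HTSeq and the build mm10, and according to the methods reads were counted without regard to strand, so overlapping and antisense genes cannot be told apart. Columns of other samples (458) were not used. Counts were summed per state and batch into 12 sums and tested with edgeR 4.0.16 in R 4.3.3 (quasi-likelihood test, TMM, state and batch in the model, Benjamini-Hochberg adjustment) after a filter of 2 counts in 15% of the cells of a state and filterByExpr with a minimum count of 2. The labels give the batch, which pairs the sums: deviations of the other states from their means correlated with those of IBA at r = 0.19 to 0.37. Standardized variance and phase scores came from Seurat 5.3.0, and principal components from log counts normalized to 10000 and centred within batch. The edgeR test, the on and off calls and the correlations within lists were tried on simulated counts, drawn without differences between batches. The IBA cells, gene lists and markers were chosen with earlier results of these data known. Genes were named by rules on list membership, rank by level, fold change, variance, loading and batch ratio; of those with values in the text, Adipoq, Cidea, Dlk1, Lhx8 and Wnt10b were added after their values were seen. Alternatives were DESeq2 1.42.0, the edgeR 4 fit, library-size scaling, other filters, thinning and leaving out each batch.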

Additional observations from a re-analysis of the deposited data

How the results depend on the processing

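Against ASPC_Pre, where 3.69% of 13562 genes tested were higher and 7.47% lower, the edgeR 4 fit gave 6.24% and 13.1%, DESeq2 6.25% higher, library-size scaling 6.67% higher, and a fit on the IBA and ASPC_Pre sums alone 1.4% and 3.62%. Leaving out the pairing by batch (no batch block) gave 2.24% and 4.76%. Leaving out each batch in turn gave 0.21% to 4.77% higher and 0.516% to 6.39% lower, the lowest without 9_1, where ASPC_Pre is 1 sum that is assumed to vary like the other groups. Against the average of the other states this gave 10.6% to 17.1% higher and 3.19% to 6.92% lower, and no batch block 14.9% and 5.18%. Of the log2 fold changes of named genes, 1 changed sign, that of Epsti1, which lay between -6.07 without batch scRNA and 0.00197 without batch 9_1, and 82 calls were lost without 9_1. The share of IBA cells in S or G2M was 70.3% by the mean z score, whose cut is the batch mean, so this is no second estimate of it. By the sign of the scores the difference from RAW_Mock was 3.73 points. Pairing by batch cannot change that value, since the mean of the paired differences equals the difference of the means. The number of variable genes shared by all batches, 30, was 56 after thinning and 14 by the squared coefficient of variation, and 48 to 60 were shared by 2 batches. The 1 gene on in some cells and off in others became 0 at 200 CPM, 22 at 20% of cells and 4 after thinning, and 3 with any 2 batches. Causes were not tested, except that comparing 2 batches asks for fewer matches. Batch 8_8 holds 15 IBA cells, which limits every value from it, and shares of cells with a count depend on depth.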
